A study of Mus musculus with 22 samples.

Results

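At day 6 of adipocyte differentiation, RNA of C3H 10T1/2 cells with the DNMT3A double mutant W330R-R181E was compared with RNA of the same cells with DNMT3A WT. The comparison took every library of both conditions, 2 against 2, which is 4 of the 22 libraries of the series, and the replicate number was treated as a block. C3H 10T1/2 is a mouse mesenchymal line whose cells can become fat cells, cartilage or muscle cells. Both groups carried a DNMT3A1 form introduced into the line, and both received the same adipocyte medium with isobutylmethylxanthine, dexamethasone, insulin and troglitazone, followed by insulin alone. The second residue change is given as R181E in the sample labels and as R181A in the headers of the count table, and the files do not settle which is right. The promoter that drives DNMT3A1, the species of its cDNA, whether the cells keep their own Dnmt3a and whether replicates 1 and 2 are independent cell lines are not given in the sources used here. Tests across replicates therefore measure the spread between these libraries, which may be technical. W330R single mutant libraries of day 6, and the WT, W330R and double mutant libraries of days 2 and 4, were used for the shared estimate of the spread and as neighbours of the comparison.

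DNMT3A places new methyl groups on DNA. W330 lies in its PWWP domain, which binds methylated lysine 36 of histone H3, and R181 lies in the N-terminal part that DNMT3A1 has and the shorter DNMT3A2 lacks, a part that binds nucleosomes with ubiquitinated histone H2A. In adipocyte differentiation, the transcription factors PPAR-gamma and C/EBP-alpha switch on genes for fatty acid synthesis, lipid droplets, lipolysis, insulin-stimulated glucose uptake and secreted adipokines, and the mitochondrial content of the cell increases. Sterol and fatty acid synthesis genes are further controlled by SREBP factors, which often act next to NF-Y, a factor that binds the letters CCAAT.

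The promoters of 5 genes on which the results turned are shown, as the 250 bases before the start site in RefSeq on GRCm38.p6. Thrsp, Fasn and Insig1 stand for the lipid and sterol synthesis genes that were lower in the double mutant. Capitals mark CCAAT on either strand, letters that 37.5% of the genes in the promoter table also hold. Isg15 and Trim12c stand for the called genes known to respond to interferon, and their capitals mark a pair of GAAA blocks with 2 bases between them, on either strand and with overlaps allowed, the core of the element through which interferons act, which 3.46% of the genes in the table hold. A match describes the letters only.
Thrsp (chr7:97417551-97417800, minus strand): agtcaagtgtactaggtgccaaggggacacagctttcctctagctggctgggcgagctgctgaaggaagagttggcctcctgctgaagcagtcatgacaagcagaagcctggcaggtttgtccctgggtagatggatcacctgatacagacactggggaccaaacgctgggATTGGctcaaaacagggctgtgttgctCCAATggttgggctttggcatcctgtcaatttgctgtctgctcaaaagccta
Fasn (chr11:120824548-120824797, minus strand): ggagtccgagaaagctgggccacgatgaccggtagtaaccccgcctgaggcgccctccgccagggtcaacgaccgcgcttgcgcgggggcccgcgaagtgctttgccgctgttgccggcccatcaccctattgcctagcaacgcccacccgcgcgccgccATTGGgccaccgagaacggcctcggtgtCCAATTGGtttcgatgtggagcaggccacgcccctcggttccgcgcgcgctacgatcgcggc
Insig1 (chr5:28071162-28071411, plus strand): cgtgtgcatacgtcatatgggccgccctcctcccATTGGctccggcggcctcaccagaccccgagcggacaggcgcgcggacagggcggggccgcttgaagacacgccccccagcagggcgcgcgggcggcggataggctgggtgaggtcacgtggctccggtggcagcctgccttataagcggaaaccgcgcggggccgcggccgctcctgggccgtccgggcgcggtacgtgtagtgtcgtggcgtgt
Isg15 (chr4:156200819-156201068, minus strand): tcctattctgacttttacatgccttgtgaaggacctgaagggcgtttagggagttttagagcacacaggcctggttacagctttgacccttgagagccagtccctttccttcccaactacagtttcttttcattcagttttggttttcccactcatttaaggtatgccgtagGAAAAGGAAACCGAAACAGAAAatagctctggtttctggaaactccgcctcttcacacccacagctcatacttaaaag
Trim12c (chr7:104353350-104353599, minus strand): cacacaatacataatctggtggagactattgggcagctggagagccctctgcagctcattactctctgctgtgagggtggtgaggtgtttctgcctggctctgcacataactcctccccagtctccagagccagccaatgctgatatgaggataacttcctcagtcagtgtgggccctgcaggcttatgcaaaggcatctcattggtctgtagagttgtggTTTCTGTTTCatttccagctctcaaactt
Thrsp held 2 matches, Fasn 3 and Insig1 1 to CCAAT, and Isg15 held 3 overlapping matches and Trim12c 1 match to the paired GAAA blocks. CCAAT is left in lower case in the promoters of Isg15 and Trim12c, where Trim12c holds 3 matches and Isg15 0, and the paired GAAA blocks had 0 matches in Thrsp, Fasn and Insig1.

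The libraries of the series held 8859501 to 47453908 counted reads with a median of 19355792. At day 6, WT had 16858871 and 21515764 reads and the double mutant 40904296 and 8859501, so that double mutant replicate 1 was 4.62 times deeper than replicate 2. A gene with 3 counts stood at 0.178 and 0.139 counts per 1000000 reads (CPM) in WT and at 0.0733 and 0.339 CPM in the double mutant. These floors use the read totals without the scaling applied to the other CPM values, and they cover counting error only. Mitochondrial transcripts took 4.98% and 6.90% of the reads in WT and 3.91% and 6.98% in the double mutant. Double mutant replicate 1 had the lowest mitochondrial share of the 22 libraries, and interferon-stimulated genes were high in it and not in replicate 2. Values without it are given where they bear on a result. Markers of immune, endothelial, epithelial and skeletal muscle cells summed to at most 7.17 CPM per list in the WT and double mutant libraries of day 6, and Myod1, Ckm and Lep, which encodes the adipokine leptin, were at 0 in all 6 libraries of day 6. Adipoq, Fabp4, Plin1, Cidec and Cfd were expressed in every library of day 6.

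Dnmt3a itself was at 113 and 149 CPM in WT (replicates 1 and 2) and at 73.3 and 123 CPM in the double mutant. The groups overlapped, and the log2 fold change of -0.45 ± 0.16 (SE) did not pass the test (adjusted p = 0.17, edgeR quasi-likelihood test). Whether the counts include the introduced DNMT3A1 is not known, so they do not check the labels. On day 2, Dnmt3a was at 177 and 326 CPM in WT and 78.4 and 148 CPM in the double mutant. Its day 2 log2 fold change of -1.16 ± 0.16 (SE) did not pass the test either (adjusted p = 0.07). Dnmt1, which maintains methylation after replication, was at 71.3 and 54.4 CPM in WT and 87.0 and 70.9 CPM in the double mutant (adjusted p = 0.41). Dnmt3b, the other methyltransferase for new methylation, was at 5.62 and 4.58 CPM against 6.82 and 6.16 CPM (adjusted p = 0.46), and Dnmt3l, the partner without catalytic activity, was at most 0.110 CPM in the WT and double mutant libraries of day 6 and too low to be tested.

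Of 14423 genes tested, 212 (1.47%) differed between double mutant and WT at day 6 at an adjusted p under 0.05, 179 (1.24%) lower and 33 (0.229%) higher in the double mutant, so that 84.4% of the calls were decreases. The median log2 fold change was -1.16 among the genes called lower and 1.18 among those called higher, against 0.02 over all genes tested, and 111 of the 179 and 20 of the 33 changed more than 2-fold. Both double mutant libraries lay below both WT libraries for 178 of the 179 lower genes, a pattern shown by 21.0% of all genes tested, and above them for 32 of the 33 higher genes, against 20.8% of all genes. The calls were made on the same libraries, so this separation follows largely from the choice of genes and is no separate support. At an unadjusted p under 0.05 there were 2556 genes (17.7%). The number of calls depended on single libraries. It was 5 without WT replicate 2, 5 without double mutant replicate 1, 60 without double mutant replicate 2 and 155 without WT replicate 1. The majority of decreases turned without double mutant replicate 2, where 32 of the 60 calls were higher and 28 lower. Increases made up 15.6% of the calls here, 33.0% with DESeq2 and 32.7% in a fit of the 4 libraries alone. Without the replicate block there were 31 calls, 1 higher and 30 lower. The fold changes of the 212 genes kept their sign in each of these fits that tested them, which were 209 genes in the fit of the 4 libraries alone.

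**Figure D1:**
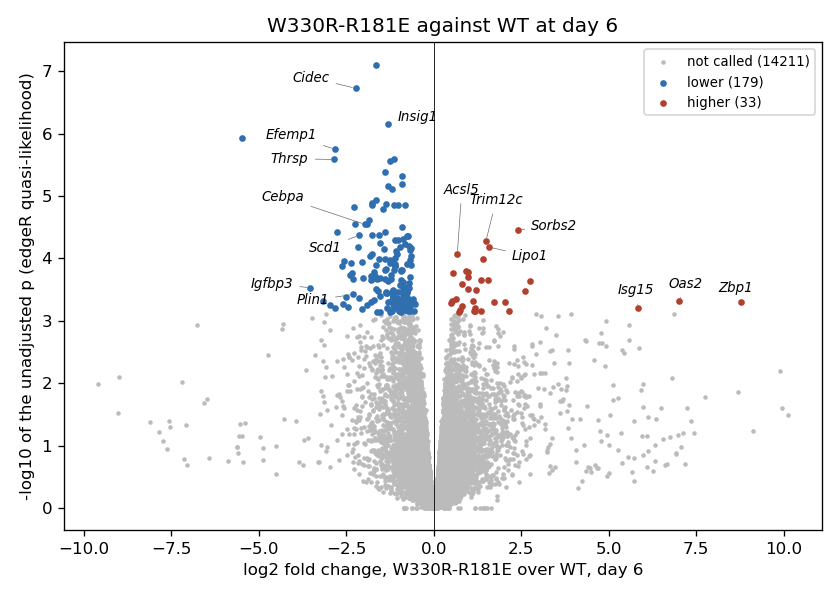
Log2 fold change of the double mutant over WT at day 6 (x axis) against the -log10 of the unadjusted p of the edgeR quasi-likelihood test (y axis) for 14423 genes, with the 179 genes called lower in blue, the 33 called higher in red and the rest in grey. The calls hold 179 decreases and 33 increases, a balance that became 28 and 32 without double mutant replicate 2, and Cidec, Insig1, Efemp1 and Thrsp were among the genes with the smallest p.

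Genes of the fat cell were among the decreases. Of 879 genes tested in 40 lists of pathways and cell types, 50 were called, 45 of them lower, against 1.47% of all genes tested called. The other 162 calls belonged to no list. The list calls were 28 without double mutant replicate 2, 16 of them higher and 12 lower, and 3, all lower, without double mutant replicate 1 or without WT replicate 2. Of 25 tested regulators of adipocyte transcription, 3 were lower and none higher, against 1.24% of all genes tested called lower. Their median log2 fold change was -0.57. Cebpa, which encodes C/EBP-alpha, was at 84.3 and 82.2 CPM in WT and at 15.6 and 29.1 CPM in the double mutant. The groups were well apart, and Cebpa fell by 1.96 on the log2 scale (SE 0.29, adjusted p = 0.016). Nr1h3, encoding the sterol-sensing receptor LXR-alpha, stood at 26.8 and 31.3 CPM against 9.44 and 7.25 CPM and fell by 1.76 (SE 0.30, adjusted p = 0.024). Esrra, an orphan receptor that drives mitochondrial genes, fell by 0.90 (SE 0.16, adjusted p = 0.029) from 77.7 and 111 CPM to 46.7 and 52.9 CPM. Pparg, which encodes PPAR-gamma, was at 65.3 and 95.1 CPM in WT and 48.2 and 44.0 CPM in the double mutant. Its groups did not overlap, but the log2 fold change of -0.76 ± 0.23 (SE) did not pass the test (adjusted p = 0.12). In RNA of whole cultures, fewer cells that had become adipocytes and less RNA of these genes per adipocyte cannot be told apart.

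Fatty acid and triglyceride synthesis was the list with the largest share of calls, as 10 of its 24 tested members were lower and none higher, against 1.24% of all genes tested called lower. Its median log2 fold change was -1.19, with medians of -1.07 between the libraries of replicate 1 and -1.51 between those of replicate 2. Thrsp, a lipogenic protein that responds to thyroid hormone, was at 65.6 and 136 CPM in WT and 14.8 and 12.5 CPM in the double mutant. It fell by 2.84 on the log2 scale (SE 0.33, adjusted p = 0.0050), the largest decrease among called genes above the expression minimum, and the log2 fold change was -2.23 without WT replicate 2. Scd1, the desaturase that makes oleic acid, stood at 5190 and 9020 CPM in WT and 1310 and 1880 CPM in the double mutant and fell by 2.14 (SE 0.34, adjusted p = 0.018). Fasn, the fatty acid synthase, fell by 1.54 (SE 0.25, adjusted p = 0.021) from 605 and 739 CPM to 263 and 208 CPM. Genes of steps around synthesis were called lower as well. Pcx, the pyruvate carboxylase that supplies oxaloacetate, was at 430 and 874 CPM against 146 and 228 CPM and fell by 1.78 (SE 0.25, adjusted p = 0.010). Slc25a1, the carrier that exports citrate from mitochondria, was at 481 and 581 CPM against 244 and 239 CPM and fell by 1.13 (SE 0.16, adjusted p = 0.010). Agpat9, an older symbol of Gpat3 and the enzyme of the first acylation of glycerol, was at 112 and 132 CPM against 36 and 42.4 CPM and fell by 1.64 (SE 0.22, adjusted p = 0.010). Of its sequences of 50 bases, 29.0% also occur in another annotated gene, an antisense transcript.

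Lipid droplet genes were lower as well, with 3 of 13 called, against 1.24% of all genes tested called lower, and a median of -0.83. Cidec, which promotes the fusion of lipid droplets, was at 1140 and 1590 CPM in WT and at 265 and 314 CPM in the double mutant, a 4.70-fold lower level. It fell by 2.23 on the log2 scale (SE 0.20, adjusted p = 0.0014), and it was called when either WT replicate 2 (adjusted p = 0.021) or double mutant replicate 1 (adjusted p = 0.041) was left out. Plin1, the coat protein of large droplets, was at 147 and 188 CPM in WT and at 47.3 and 14.8 CPM in the double mutant. The double mutant libraries were far apart here, and the log2 fold change of -2.30 ± 0.47 (SE, adjusted p = 0.041) became -3.75 without double mutant replicate 1 and -1.57 without double mutant replicate 2. Fitm2, which directs fat into droplets, fell by 1.11 (SE 0.20, adjusted p = 0.027). Among 14 lipolysis genes, 2 were lower, both of them lipases that act on stored fat. Pnpla2, encoding the lipase ATGL, was at 1310 and 2050 CPM against 403 and 572 CPM and fell by 1.77 (SE 0.25, adjusted p = 0.010). Lipe, encoding hormone-sensitive lipase, was at 608 and 1080 CPM against 225 and 278 CPM and fell by 1.74 (SE 0.33, adjusted p = 0.032).

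Fatty acid uptake and binding held 1 decrease and 1 increase among 16 members, both of them enzymes that join fatty acids to coenzyme A. Acsl1 was at 2200 and 3370 CPM in WT and at 535 and 968 CPM in the double mutant and fell by 1.90 (SE 0.28, adjusted p = 0.016). Acsl5 was at 55.4 and 56.6 CPM against 87.2 and 91.1 CPM and rose by 0.67 (SE 0.11, adjusted p = 0.024). Slc2a4, which encodes the insulin-responsive glucose transporter GLUT4, was the 1 called gene of 18 in insulin signalling and glucose uptake, whose median was -0.01. It was at 45 and 52.7 CPM in WT and at 14.5 and 12.4 CPM in the double mutant and fell by 1.86 (SE 0.27, adjusted p = 0.015). Among 17 adipokines and secreted proteins the median was -0.58, and the 1 call was an increase. Angptl4, an inhibitor of lipoprotein lipase that glucocorticoids and fatty acids induce, was at 13.1 and 7.25 CPM in WT and 25.9 and 19.1 CPM in the double mutant and rose by 1.17 (SE 0.26, adjusted p = 0.049). It was also the 1 call among 14 glucocorticoid-induced genes. Of all genes tested, 1.24% were called lower and 0.229% higher, so single calls in these lists describe the genes and not the lists.

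Several of the markers by which adipocytes are usually known did not pass the test. Adipoq, encoding the hormone adiponectin, was at 762 and 1300 CPM in WT and at 342 and 460 CPM in the double mutant, with no overlap, a log2 fold change of -1.34 ± 0.31 (SE) and an adjusted p of 0.055. Fabp4, the fatty acid carrier of adipocytes, was at 1540 and 4510 CPM against 582 and 1680 CPM, lower in the double mutant within both replicate numbers, although the groups overlapped. Its log2 fold change of -1.42 did not pass the test (adjusted p = 0.13) and was -2.16 without double mutant replicate 2 and -0.67 without WT replicate 2. In both genotypes the library of replicate 2 was the higher for Fabp4, Adipoq and Lpl. Lpl, encoding lipoprotein lipase, was at 980 and 1460 CPM against 409 and 522 CPM (adjusted p = 0.18), and Cfd, encoding adipsin, at 534 and 579 CPM against 241 and 158 CPM (adjusted p = 0.15). Cd36, a fatty acid transporter, was low, at 11.8 and 13 CPM against 4.52 and 12 CPM, and its log2 fold change of -0.62 (adjusted p = 0.63) became 0.21 without double mutant replicate 1. Of 12 thermogenic fat genes, 0 were called by edgeR or by DESeq2, where edgeR called 1.47% of all genes tested. Of the 12, 5 had an unadjusted p under 0.05, against 17.7% of all genes, and the median was -0.66. The 6 adipocyte markers together summed to 4120 and 8170 CPM in WT and to 1480 and 2630 CPM in the double mutant.

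**Figure D2:**
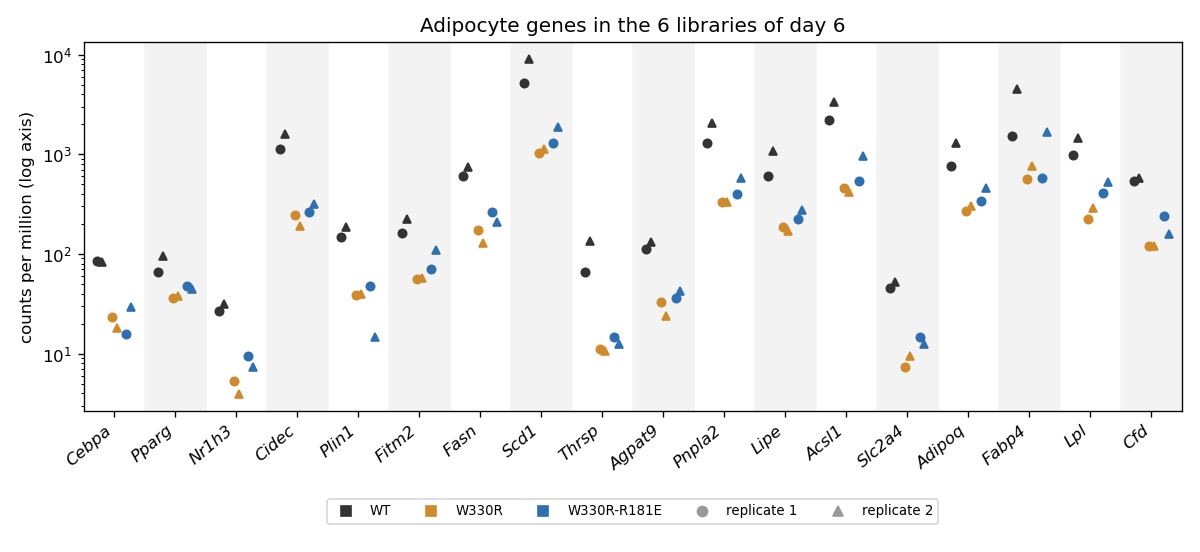
CPM on a log axis of 18 adipocyte genes (x axis) in the 6 libraries of day 6, with WT in black, W330R in orange, the double mutant in blue, circles for replicate 1 and triangles for replicate 2. Both double mutant libraries sit below both WT libraries for every gene shown except Fabp4, and the W330R libraries sit below WT for all 18.

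Genes of mitochondrial fuel use were lower with smaller fold changes. Of 33 genes of fatty acid oxidation and the tricarboxylic acid (TCA) cycle, 11 were lower and none higher, against 1.24% of all genes tested called lower. At an unadjusted p under 0.05, 28 were lower, against 1418 of all 14423 genes, and the median log2 fold change was -0.79. Cpt2, which passes fatty acids to the oxidation enzymes inside mitochondria, was at 150 and 188 CPM in WT and at 84.5 and 95.1 CPM in the double mutant and fell by 0.91 (SE 0.11, adjusted p = 0.0069). Ogdh, a subunit of the 2-oxoglutarate dehydrogenase of the TCA cycle, fell by 0.76 (SE 0.13, adjusted p = 0.027), and the acyl-CoA dehydrogenases Acads and Acadvl fell by 0.94 and 0.82 (adjusted p = 0.032 and 0.038). Acadvl shares 26.9% of its 50-base sequences with other genes, mainly Dvl2 on the other strand. Of 82 subunits of the respiratory chain, 5 were lower and 53 were lower at an unadjusted p under 0.05, with a median of -0.52. Uqcrc1, Uqcrfs1 and Cyc1 of complex III fell by 0.81, 1.06 and 1.16, and Ndufv1 of complex I by 0.92 (adjusted p = 0.021, 0.044, 0.047 and 0.036). Uqcrc1 illustrates the pattern, at 119 and 147 CPM in WT and at 74.5 and 74.9 CPM in the double mutant.

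Cholesterol synthesis and SREBP2 targets had 5 lower members of 24, against 1.24% of all genes tested called lower, and a median of -0.61. Insig1, whose protein holds back the processing of SREBP when sterols are plentiful, was at 379 and 450 CPM in WT and at 170 and 165 CPM in the double mutant. The libraries of each group were close together, and Insig1 fell by 1.31 (SE 0.13, adjusted p = 0.0034), a call kept without WT replicate 2 (adjusted p = 0.042) and without double mutant replicate 1 (adjusted p = 0.049). Tm7sf2, a sterol reductase, was at 31.4 and 35.8 CPM against 15.1 and 12.3 CPM and fell by 1.30 (SE 0.17, adjusted p = 0.0083). Acat2, which makes acetoacetyl-CoA, and Pmvk, a kinase of the mevalonate pathway, fell by 0.75 and 1.08 (adjusted p = 0.018 and 0.023). Of the 50-base sequences of Acat2, 39.1% also occur in Acat3, so that its counts are uncertain. Glycolysis and the hypoxia response had 2 lower members of 25 with a median of -0.49. Aldoa, an aldolase, was at 2090 and 3390 CPM against 1130 and 1320 CPM and fell by 1.12 (SE 0.20, adjusted p = 0.027), and Vegfa, a growth factor for vessels, fell by 0.89 (SE 0.14, adjusted p = 0.020).

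**Figure D3:**
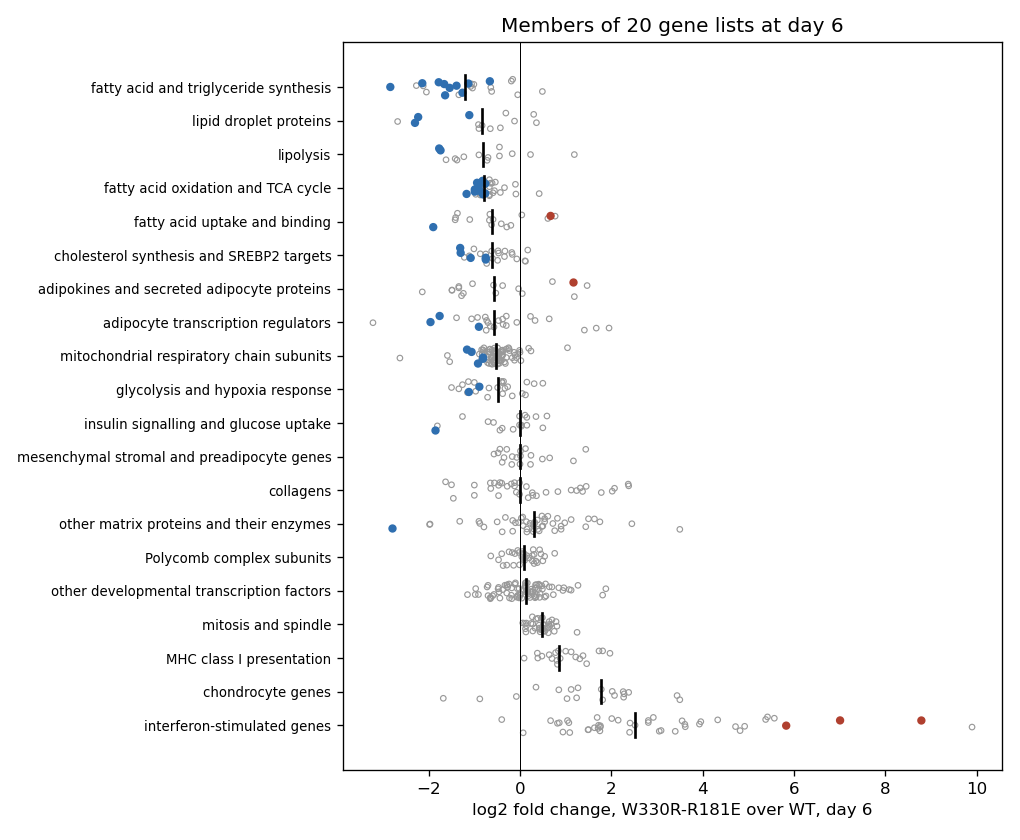
Log2 fold change of the double mutant over WT at day 6 (x axis) for each tested member of 20 gene lists (y axis), with genes called lower filled in blue, genes called higher filled in red, other genes as open circles and the median of each list as a black bar. The medians of the lipid and mitochondrial lists lie left of 0, at -0.52 to -1.19, those of collagens and stromal genes at 0, and those of chondrocyte and interferon-stimulated genes at 1.78 and 2.52.

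Outside the lists, 162 genes were called. Slc36a2, Tmem179, Aldh3b2 and Phospho1, outside the lists and among the 12 largest decreases above the expression minimum, were called lower than in WT in both mutants. Slc36a2, a transporter of small amino acids, was at 12.4 and 10.9 CPM in WT, 1.64 and 2.31 CPM in the double mutant and 2.84 and 2.86 CPM in W330R. It was called lower than in WT, with a log2 fold change of -2.63 ± 0.47 (SE, adjusted p = 0.027) that became -1.96 without WT replicate 1 (adjusted p = 0.086). Tmem179, a membrane protein, and Aldh3b2, an aldehyde dehydrogenase, fell by 2.35 and 2.24 (adjusted p = 0.030 and 0.016), and 24.2% of the 50-base sequences of Aldh3b2 occur in other genes, mainly Aldh3b3. Phospho1, a phosphatase of phosphocholine and phosphoethanolamine, fell by 2.28 (adjusted p = 0.010) with a log2 fold change of -1.67 without WT replicate 2, but 85.4% of its 50-base sequences also lie in Zfp652 transcripts.

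Other called genes were low in the double mutant and not in W330R. Among the called genes named here they are Klhl13, Aff2 and Plekha6 of the 12 largest decreases, and Efemp1, Ltbp2 and Igfbp3, which belong to lists. The pattern was not counted over all calls. Efemp1, a fibulin of the extracellular matrix, was at 4.70 and 3.65 CPM in WT, 0.890 and 0.330 CPM in the double mutant and 23.6 and 13.7 CPM in W330R. It fell by 2.81 against WT (SE 0.32, adjusted p = 0.0050) and by 4.91 against W330R (adjusted p = 9.8e-05), while W330R was above WT by 2.10 (adjusted p = 0.0014). The double mutant value of replicate 2 rests on 3 counts. Klhl13, a subunit of a ubiquitin ligase, was at 6.94 and 5.01 CPM in WT, 1.5 and 0.769 CPM in the double mutant and 7.03 and 10.8 CPM in W330R. Aff2, a nuclear protein of the AF4 family, was at 9.24 and 8.42 CPM in WT, 2.18 and 1.76 CPM in the double mutant and 13.7 and 14.7 CPM in W330R. Plekha6 was at 9.98 and 6.52 CPM in WT, 1.94 and 1.32 CPM in the double mutant and 21.9 and 8.41 CPM in W330R. Against WT, the log2 fold changes of these 3 were -2.31, -2.15 and -2.37 (adjusted p = 0.032, 0.021 and 0.027), and that of Klhl13 was -2.92 without double mutant replicate 1. Against W330R they were -2.91, -2.84 and -3.14 (adjusted p = 0.0079, 0.0054 and 0.0061). Ltbp2, which binds latent growth factors in the matrix, was at 432 and 873 CPM in WT, 155 and 370 CPM in the double mutant and 571 and 1300 CPM in W330R, and fell by 1.36 against WT (adjusted p = 0.039) and by 1.85 against W330R (adjusted p = 0.0073). Igfbp3, a carrier of insulin-like growth factors, had 15 and 21 counts in WT, 4 and 1 counts in the double mutant and 74 and 20 counts (1.42 and 0.828 CPM) in W330R. It was called lower against WT (adjusted p = 0.038) and against W330R (adjusted p = 0.022). Its log2 fold changes against WT lay between -4.18 and -2.65 when WT replicate 1, WT replicate 2 or double mutant replicate 1 was left out. Efemp1 was the 1 call among 49 matrix proteins other than collagens, Ltbp2 among 26 genes of the BMP and TGF-beta pathway and Igfbp3 among 14 of the IGF system, with list medians of 0.30, 0.10 and -0.34. Of all genes tested, 1.47% were called, so these single calls describe the genes and not the lists.

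The increases were fewer and held genes of unlike function. Sorbs2, an adaptor protein of the actin cytoskeleton, was at 13.7 and 7.06 CPM in WT, 60.8 and 45.7 CPM in the double mutant and 7.30 and 9.86 CPM in W330R. It rose by 2.41 against WT (SE 0.37, adjusted p = 0.018) and by 2.57 against W330R (adjusted p = 0.0069), and its adjusted p against WT was 0.065 without double mutant replicate 1. Slc35f1, a member of a transporter family, was at 1.38 and 0.438 CPM in WT and at 4.87 and 5.61 CPM in the double mutant and rose by 2.59 (SE 0.52, adjusted p = 0.039), with log2 fold changes of 3.47 and 2.00 without WT replicate 1 and without WT replicate 2. Ppfibp2, a liprin, and Kcnmb4, a subunit of potassium channels whose sequence overlaps antisense genes, rose by 2.14 and 2.03 (adjusted p = 0.049 and 0.045), and the value of Kcnmb4 was 2.62 without WT replicate 1. Dmxl2, a regulator of the vesicle proton pump, was at 6.88 and 5.21 CPM in WT, 20 and 19.7 CPM in the double mutant and 18.3 and 24.2 CPM in W330R, and rose by 1.73 (SE 0.36, adjusted p = 0.045). Adam19, a membrane protease, was at 32.5 and 19.7 CPM against 59.5 and 69.9 CPM and rose by 1.34 (SE 0.25, adjusted p = 0.032), with 61.2 and 75.5 CPM in W330R. Lrrn4cl was at 3.67 and 4.09 CPM in WT and at 11 and 9.67 CPM in the double mutant (adjusted p = 0.026), and it was higher still in W330R, at 16.5 and 20.4 CPM. Lipo1 and Vmn2r11 were also called higher, but they belong to families of close copies, and 44.4% and 16.9% of their 50-base sequences occur in other genes.

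Interferon-stimulated genes were raised in 1 of the 2 double mutant libraries. The 47 genes of the list summed to 768 and 993 CPM in WT and to 4890 and 856 CPM in the double mutant, and in the earlier double mutant libraries they summed to between 398 and 746 CPM. Of 45 tested members, 43 were over 2-fold higher in the double mutant in the pair of replicate 1 and 5 in the pair of replicate 2. Isg15, an antiviral protein related to ubiquitin, was at 0.459 and 0.633 CPM in WT and at 127 and 1.65 CPM in the double mutant. It was called with a log2 fold change of 5.83 ± 1.25 (SE, adjusted p = 0.047), and without double mutant replicate 1 the value was 2.30 with an adjusted p of 0.28. Without double mutant replicate 2, WT replicate 1 or WT replicate 2 it was 6.91, 4.22 and 7.30. Oas2, which senses double-stranded RNA, had 1 and 3 counts in WT and 2056 and 3 counts in the double mutant, and Zbp1, a sensor of Z-form nucleic acids, 0 and 0 counts in WT and 287 and 0 counts in the double mutant. The list had 3 calls, which were none without double mutant replicate 1 and 13 without double mutant replicate 2, and its median of 2.52 became 0.61 and 3.32. With the 2 genes at 0 in both WT libraries set to the bound that 3 counts over the group allow, the median stayed 2.52. W330R libraries of replicate 1 were also above those of replicate 2 on each day, at 1770 against 760, 2890 against 923 and 1560 against 989 CPM.

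Trim12c and Samd9l, both known to respond to interferon, were higher in both pairs. Trim12c was at 18.6 and 12.4 CPM in WT and at 64.2 and 26.9 CPM in the double mutant (log2 fold change 1.49 ± 0.24, adjusted p = 0.020), and 33.7% of its 50-base sequences occur in other genes of its family. Samd9l was at 33.2 and 30.1 CPM against 128 and 51.0 CPM (log2 fold change 1.34 ± 0.29, adjusted p = 0.049). Without double mutant replicate 1 the values were 1.13 and 1.04 (adjusted p = 0.11 and 0.18). The 20 genes of antigen presentation by MHC class I gave no call, against 1.47% of all genes tested. At an unadjusted p under 0.05 there were 12, against 17.7% of all genes, and DESeq2 called 3. Their summed levels were 800 and 1140 CPM in WT against 2140 and 1180 CPM in the double mutant. Of the 33 genes called higher, 30 were not members of the interferon list, and the median log2 fold change of the 33 was 1.10 without double mutant replicate 1. The 33 were called from the same libraries, so a positive median follows largely from their choice and is no separate support. The part of the interferon genes in the other increases was not tested.

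**Figure D4:**
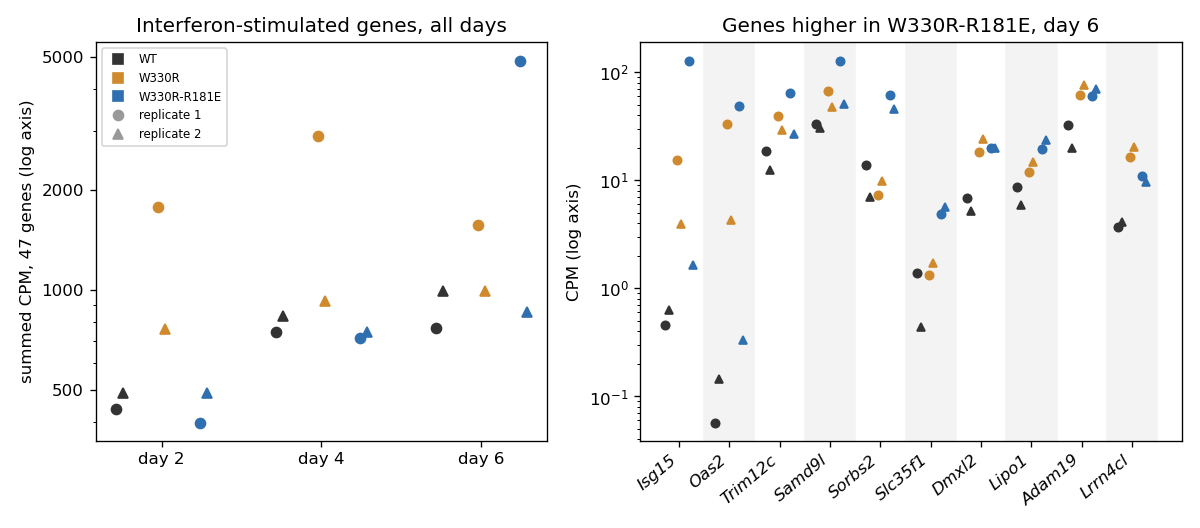
Left, summed CPM of 47 interferon-stimulated genes on a log axis in the 18 libraries of days 2, 4 and 6, and right, CPM on a log axis of 10 genes called higher in the double mutant at day 6, with WT in black, W330R in orange, the double mutant in blue, circles for replicate 1 and triangles for replicate 2. Double mutant replicate 1 of day 6 stands at 4890 CPM and replicate 2 at 856 CPM, while Sorbs2, Slc35f1, Dmxl2, Lipo1, Adam19 and Lrrn4cl are high in both.

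The lists of other mesenchymal fates had no call by edgeR. Of all genes tested, 1.47% were called and 17.7% had an unadjusted p under 0.05. Lists of these sizes hold few calls or none at the first share. Of 19 chondrocyte genes none was called by edgeR and 1 by DESeq2, and the median log2 fold change was 1.78. At an unadjusted p under 0.05, 8 were higher, against 1138 of all 14423 genes. Compared with W330R, 5 of the 19 were called higher in the double mutant, against 1.06% of all genes. In 1 of these 5, the double mutant had 256 and 0 counts and W330R 2 and 1 counts, so that call rests on replicate 1. The 19 genes summed to 4400 and 877 CPM in WT, 12200 and 3930 CPM in the double mutant and 1370 and 1380 CPM in W330R. Col2a1, the main collagen of cartilage, was at 1710 and 236 CPM in WT and at 4500 and 1110 CPM in the double mutant. As ratios, the WT libraries lay further apart than the group means. The double mutant was above the WT library of the same number in 6 of 6 pairs on days 2, 4 and 6, and in every WT and double mutant pair of days 2, 4 and 6 replicate 1 was the higher (adjusted p at day 6 = 0.38). Sox9, a regulator of cartilage, was at 426 and 220 CPM against 672 and 461 CPM (adjusted p = 0.35). The stromal and preadipocyte list had no call among 19 genes by edgeR or DESeq2, 1 gene at an unadjusted p under 0.05 and a median of 0.00. Pdgfra, a growth factor receptor of stromal cells, was at 275 and 293 CPM against 196 and 352 CPM, and its log2 fold change of -0.07 became 0.26 without double mutant replicate 1. Collagens, smooth muscle and osteoblast genes had no call among 36, 22 and 12 genes, with 9, 5 and 3 at an unadjusted p under 0.05, and DESeq2 called 1, 0 and 0. Acta2, a smooth muscle actin, was at 528 and 223 CPM against 832 and 403 CPM (adjusted p = 0.43).

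Gene groups tied to DNA methylation, Polycomb and development gave no call by edgeR. They were 18 genes of DNA methylation and demethylation, 36 Polycomb subunits, 13 Hox genes, 84 other developmental transcription factors, 16 imprinted genes and 8 germline genes, each counted among the genes tested. Of all genes tested, 1.47% were called, so lists of these sizes hold few calls or none at that share. Their lack of calls is therefore no result about them. At an unadjusted p under 0.05 there were 3, 6, 1, 15, 4 and 2 genes in these groups, against 17.7% of all genes tested. DESeq2 called 0, 3, 0, 1, 3 and 0, against 820 of all 14423 genes. The medians of the log2 fold changes were 0.15, 0.08, 0.12, 0.13, 0.01 and -0.24. Cell cycle lists gave no call either, with medians of 0.34 for 37 genes of DNA replication and 0.49 for 39 genes of mitosis, 7 and 4 genes at an unadjusted p under 0.05, and DESeq2 called 3 and 0. The mitosis genes summed to 923 and 476 CPM in WT and to 1010 and 865 CPM in the double mutant. The amino acid stress response and WNT, hedgehog, chemokine and muscle lists likewise had none, with 5 of 25, 4 of 20, 2 of 10, 1 of 23 and 2 of 8 members at an unadjusted p under 0.05 and 1, 2, 0, 1 and 0 called by DESeq2. Markers of immune, endothelial, epithelial and neural or glial cells had 2, 2, 2 and 4 genes high enough to be tested and no call by edgeR, with 1, 0, 1 and 1 at an unadjusted p under 0.05, and DESeq2 called 1 neural or glial gene. The shares over all genes given above apply to every list of this paragraph.

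The direction at day 6 was already present at day 4 in most of the called genes. The comparisons at days 4 and 2 share no library with that of day 6, but they share its fit, and the same lines may be behind them. At day 4, 3 of 14423 genes (0.0208%) were called, all lower. Mcam, an adhesion molecule, Pfkfb3, which raises glycolysis, and Etv3, a repressor of the ETS family, fell by 1.06, 1.67 and 0.91 (adjusted p = 0.049 each), and all were also called lower at day 6. With 1 of the 4 WT and double mutant libraries of day 4 left out, at most 1 gene was called at day 4. All 179 genes called lower at day 6 had a negative log2 fold change at day 4, against 50.9% of all genes, with a median of -0.77. At day 2, when no gene (0.0%) was called 1469 (10.2%) had an unadjusted p under 0.05 and DESeq2 called 155, 139 of the 179 (77.7%) were negative, against 50% of all genes, with a median of -0.28. Of the 33 higher genes, 31 were positive at day 4 and 25 at day 2, with medians of 0.59 and 0.33. The change of the difference between days was tested directly. No gene was called for day 6 minus day 4 or for day 6 minus day 2 (0.0% each) by edgeR, with 252 (1.75%) and 915 (6.34%) genes at an unadjusted p under 0.05, and DESeq2 called 5 and 91.

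The courses of single genes are described only. By edgeR, none of the genes of this paragraph was called on day 2 or day 4 or for a change between days. Thrsp was close to absent on day 2 in both genotypes, at 0.535 and 0.449 CPM in WT and 0.665 and 0.297 CPM in the double mutant, and stood at 24.3 and 24.1 CPM against 11.2 and 8.79 CPM on day 4. Insig1 was at 77.9 and 83.1 CPM against 75.3 and 71.6 CPM on day 2 and at 215 and 208 CPM against 178 and 142 CPM on day 4. For both, the WT level on day 6 was above every earlier WT library, and the double mutant level stood closer to that of its own day 4. Cebpa was apart from day 2 on, at 77.9 and 136 CPM in WT and 40.3 and 53.8 CPM in the double mutant. Klhl13 and Aff2 were also low in the double mutant on days 2 and 4, with log2 fold changes of -2.41 and -1.74 on day 2 and -2.96 and -1.81 on day 4. Sorbs2 was at 13.8 and 8.51 CPM in WT and 65.7 and 33.1 CPM in the double mutant on day 4. Whether these courses differ between genes was not tested.

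**Figure D5:**
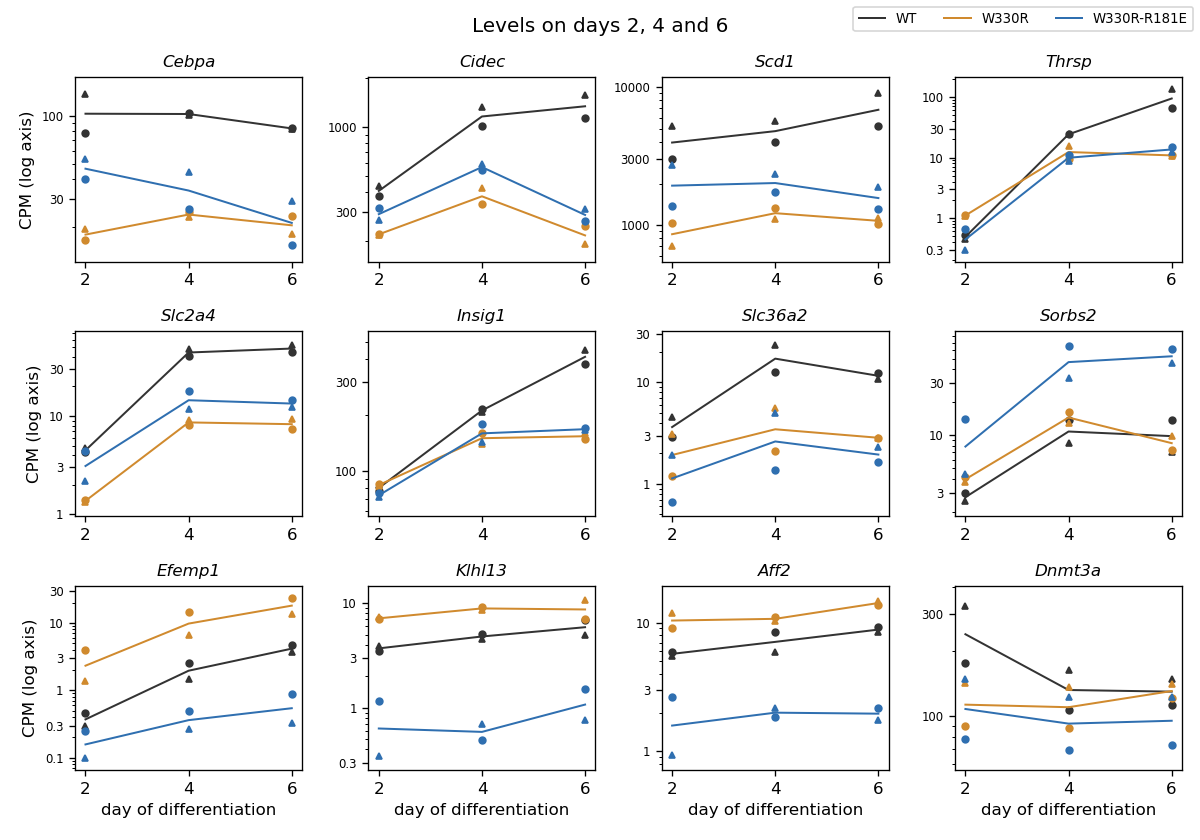
CPM on a log axis of 12 genes on days 2, 4 and 6 of differentiation (x axis), with WT in black, W330R in orange and the double mutant in blue, circles for replicate 1, triangles for replicate 2 and lines through the geometric mean of both libraries. Thrsp and Insig1 start at like levels on day 2 and part by day 6, whereas Cebpa, Klhl13 and Aff2 are apart on every day.

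Beside W330R, the double mutant had the smaller median differences from WT in the lipid lists. W330R against WT gave 1522 calls (10.6%) at day 6, 500 higher (3.47%) and 1022 lower (7.09%), and the double mutant against W330R 369 calls (2.56%), 153 higher (1.06%) and 216 lower (1.5%). Leaving out 1 library at a time gave 1.25% to 8.2% for W330R against WT and 0.201% to 0.499% for the double mutant against W330R. These comparisons share libraries with the comparison of double mutant and WT, so their values are set side by side without a test across them. The median log2 fold change of fatty acid and triglyceride synthesis genes against WT was -1.19 in the double mutant and -1.90 in W330R, that of lipolysis genes -0.81 and -1.76, and that of respiratory chain genes -0.52 and -0.94. Direct comparison of double mutant and W330R gave medians of 0.51, 0.53 and 0.40 for these lists with 2 of 24, 1 of 14 and 1 of 82 members called higher. Slc25a1 was called, 0.75 higher in the double mutant (adjusted p = 0.032), whereas Cidec, Scd1, Fasn, Thrsp and Cebpa were not, with log2 differences of 0.40, 0.54, 0.65, 0.35 and 0.02 (adjusted p = 0.31, 0.43, 0.19, 0.64 and 0.99).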

How the data were processed

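RNA-seq libraries were made from TriZol total RNA with the NEBNext Ultra II kit, and how mRNA was selected is not given in the sources used here. The authors deposited 1 table with the number of reads counted per gene symbol in 22 libraries, as whole counts without normalization. Per the labels, the processing notes name kallisto, DESeq2 1.40 and GRCm39, with no role for each, and whether counting used strand is not given in the sources used here, so that genes overlapping on opposite strands may share reads. No column was left out. Libraries were grouped by genotype and day from the labels.

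From the counts of the 18 libraries of days 2, 4 and 6, edgeR 4.0.16 (R 4.3.3) kept 14423 of 30170 genes with its filterByExpr function, at a minimum count of 10 and a total of 15. A quasi-likelihood model with TMM normalization, 9 conditions and the replicate number as an additive block left 8 residual degrees of freedom. Genes with a Benjamini-Hochberg adjusted p under 0.05 were called. SE is the log2 fold change divided by the square root of F. CPM values other than the floors of 3 counts use TMM-scaled library sizes. The comparison asked for the block. The labels do not say what the numbers share, and the R2 minus R1 deviations of WT and double mutant at day 6 correlated at 0.321 across genes. Over 36 pairs of conditions this correlation was above 0.1 in 26 and ranged from -0.0234 to 0.529.

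Genes were named by rule: the 12 largest increases and decreases among calls whose mean log2 CPM was 1 or more and whose direction matched in both pairs, the DNA methyltransferases, 13 adipocyte markers, up to 4 called members of each of 40 lists, and cell type markers. A gene that the rule names is not reported here. The 3 genes called at day 4 were named after their values were seen. The members and lists were chosen with earlier results of these data known. Of the list members, 8 were matched through RefSeq synonyms and 8 not at all. Sequence copies were counted as 50-base sequences shared between genes of GENCODE vM21. Promoters came from the RefSeq table of GRCm38.p6. A comparison of promoter CpG content was void, since 74.9% of the genes tested, 80.4% of those called lower and 69.7% of those called higher had a promoter in the table, against the 80% required. Alternatives were DESeq2 1.42.0, RLE normalization, no filter, other blocks, other sets of libraries and each library left out. The scripts were tested on simulated data.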

Additional observations from a re-analysis of the deposited data

How the results depend on the processing

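The counts of calls are the values that depend most on the processing. The 212 fold changes between double mutant and WT at day 6 kept their sign under every alternative that tested them, including all 209 in the fit of 4 libraries. These genes were called from the same libraries, so kept signs were close to fixed by the choice and are no separate support. RLE normalization, no filter on low counts and a replicate block for each day gave 193, 169 and 273 calls. Without the replicate block there were 31, all among the 212, and with all 22 libraries in the fit 386. The fit of only the 4 libraries gave 591, of which 162 were among the 212, and DESeq2 gave 820, of which 210 were. The list members called (50) became 11 without the block, 82 with all 22 libraries, 142 with only the 4 libraries and 157 with DESeq2. Leaving out 1 library at a time gave 5 to 155 calls for day 6 and 3 to 40 list members, and without double mutant replicate 2 increases outnumbered decreases among both, 32 to 28 and 16 to 12.

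For the neighbouring comparisons, day 4 (3 calls) had 1 call without the filter on low counts, 0 without the replicate block or with a block for each day, 1778 with only its own groups and 355 with DESeq2. Day 2 (0 calls) had 1 with RLE or without the filter, 10 with all 22 libraries, 101 with only its own groups and 155 with DESeq2. Day 6 minus day 4 had 5 with DESeq2, and day 6 minus day 2 had 1 with a block for each day, 12 with all 22 libraries and 91 with DESeq2. As a percent of the genes tested, calls for W330R against WT (10.6%) were 4.46% without the replicate block and 3.37% with only its own groups, and those for the double mutant against W330R (2.56%) were 0.277% without the replicate block, 1.71% with only its own groups and 6.46% with DESeq2. With 1 library left out, the ranges were 0 to 1 for day 4, 0 to 25 for day 2, 0 to 1 for day 6 minus day 4, 0 to 2 for day 6 minus day 2, 1.25% to 8.2% for W330R against WT and 0.201% to 0.499% for the double mutant against W330R. A condition left with 1 library was assumed to vary like the others.

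Of the 56 called genes named here, 54 kept the call with RLE, 54 without the filter, 55 with DESeq2, 15 without the block and 3 without double mutant replicate 1 or without WT replicate 2. Of the genes named with values, Cd36 and Pdgfra changed sign, and neither was called. With 1 library left out, the log2 fold change of Cd36 ran from -1.82 to 0.21 and that of Pdgfra from -0.51 to 0.26, with the positive values without double mutant replicate 1. The causes of these changes were not tested. Whether replicate numbers pair the libraries is not stated, and the correlation of the day 6 deviations, 0.321, is a hint from the data and not from the design. With 2 libraries per group, 1 of them at 8859501 reads, low genes such as Igfbp3 and Efemp1 rest on few counts in double mutant replicate 2.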
